A study of Rattus norvegicus with 12 samples.

Results

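The genes of the proteasome were followed in CC531 cells, a rat colon carcinoma line, during treatment with butyrate or aspirin. Members were all probe sets annotated to a single gene whose symbol begins with Psma, Psmb, Psmc, Psmd, Psme, Psmf or Psmg and goes on with a digit. There were 49 of them among the 8740 probe sets of the array that were not controls, for 27 of the 4736 genes with a probe set of their own, and 47 passed the filter on dim probe sets, so that all 27 genes were tested. The remaining 2, 1 for Psma6 and 1 for Psme1, were at the floor set for low values on every array.

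Total RNA of 12 samples was hybridized to 1 oligonucleotide array each. Cells had received 4.5 mM butyrate (5 arrays, at 2, 6, 12, 16 and 24 h), 3 mM aspirin (5 arrays, at the same hours) or no agent (2 arrays, at 2 and 24 h). Each combination of agent and hour was 1 array of a single line, and the labels do not say whether arrays came from separate cultures. Every p-value below is therefore set against the spread among the arrays alone, which may be technical. Against untreated cells the hours of a drug stood as its replicates, so that spread also holds changes over the hours. Between the drugs it also holds any change of their difference over the hours. Butyrate is a short-chain fatty acid made by gut bacteria that inhibits histone deacetylases, and aspirin inhibits cyclooxygenases.

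The proteasome cuts proteins that carry ubiquitin chains into peptides. Its barrel-shaped core has outer rings of alpha subunits (Psma genes) and inner rings of beta subunits (Psmb genes), of which Psmb5, Psmb6 and Psmb7 encode the catalytic ones. A regulatory cap, with an ATPase ring (Psmc genes) and further subunits (Psmd genes), binds and unfolds the substrate. In cells exposed to interferon, Psmb8, Psmb9 and Psmb10 take the places of Psmb5, Psmb6 and Psmb7 to form the immunoproteasome, and the PA28 activator made of Psme1 and Psme2 can dock on the core, which changes the peptides offered to T cells on MHC class I.

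Of the 27 genes, 21 were constitutive subunits with 39 tested probe sets, and 4 were inducible (Psmb8, Psmb9, Psme1 and Psme2) with 6 tested probe sets. The other 2 were Psmd10 (gankyrin), an assembly factor of the cap, and Psme4 (PA200), an activator that works without ubiquitin. Psmb6, Psmb7 and Psmb10 had no probe set of their own, and 5 proteasome probe sets annotated to several genes were not used. Where a gene had several probe sets, its brightest tested one stood for it in counts and medians of genes, and probe sets drawn from 1 sequence record, whose names differ by the letter g, are not independent.

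The upstream regions of 3 of the 4 inducible genes are shown because the changes of the inducible genes under butyrate are described gene by gene below. Each line gives 300 bases of RefSeq's GRCr8 assembly, 250 before and 50 after the annotated start, on the strand of the gene. Capitals mark matches, read on both strands, to 2 patterns. One is GAAA, any 2 bases and GAAA again, a core of the interferon-stimulated response element, and the other is TTCNNNGAA, the gamma-activated site. The matches shown do not overlap each other. The windows are chr20:4656982-4657281 on the minus strand for Psmb8, chr20:4668750-4669049 on the plus strand for Psmb9 and chr15:33052702-33053001 on the minus strand for Psme2.
Psmb8: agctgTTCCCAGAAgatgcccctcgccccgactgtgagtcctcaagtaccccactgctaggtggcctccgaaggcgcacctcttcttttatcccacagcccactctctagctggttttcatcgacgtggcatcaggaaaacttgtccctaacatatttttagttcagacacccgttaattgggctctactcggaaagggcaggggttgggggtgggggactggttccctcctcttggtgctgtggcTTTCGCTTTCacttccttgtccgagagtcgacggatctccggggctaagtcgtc
Psmb9: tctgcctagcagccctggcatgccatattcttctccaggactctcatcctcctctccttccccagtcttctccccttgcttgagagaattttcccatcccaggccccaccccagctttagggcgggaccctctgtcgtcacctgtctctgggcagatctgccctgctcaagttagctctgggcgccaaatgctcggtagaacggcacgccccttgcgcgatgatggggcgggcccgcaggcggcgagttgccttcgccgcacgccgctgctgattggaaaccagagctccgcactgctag
Psme2: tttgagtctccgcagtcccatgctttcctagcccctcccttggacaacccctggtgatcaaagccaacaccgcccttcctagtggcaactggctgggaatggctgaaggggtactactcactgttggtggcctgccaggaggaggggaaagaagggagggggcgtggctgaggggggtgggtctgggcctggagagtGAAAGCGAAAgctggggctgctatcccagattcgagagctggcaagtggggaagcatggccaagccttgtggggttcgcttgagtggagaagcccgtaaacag

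The Psmb8 window held the response element core on the reverse strand at bases 247 to 256, across the start, and TTCNNNGAA at bases 6 to 14. The Psme2 window held the response element core at bases 198 to 207, and the Psmb9 window held neither pattern. Psme1, the inducible gene not shown, was not among the genes with a match to either pattern. A RefSeq window was found for 26 of the 27 genes. This core occurred in 4 of them (Psma4, Psmb3, Psmb8 and Psme2) and in 3.92% of all 33469 windows of this length, and TTCNNNGAA in 1 (Psmb8) and in 8.87%. TGACNNNGC, a core of the antioxidant response element, occurred in 4 (Psmb2, Psmb5, Psmd1 and Psme4) and in 12.1%. The starts of Psmb9 and its neighbour Tap1, which encodes a chain of the peptide transporter, lie 457 bases apart on opposite strands, and their windows share 44 bases.

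Psmb8, the inducible counterpart of the catalytic subunit Psmb5, fell with time in butyrate. Its intensity was 3459.0, 2577.4, 1372.6, 867.5 and 545.2 at 2, 6, 12, 16 and 24 h of butyrate. It was 5275.4, 5163.9, 4515.1, 4793.9 and 5190.5 at the same hours of aspirin, and 3407.4 and 5073.5 in untreated cells at 2 and 24 h. Every butyrate array lay below every aspirin array, each butyrate array lay below the one before it, and the butyrate array at 2 h was close to the untreated array at 2 h. At 24 h the log2 difference of butyrate was -3.25 from aspirin and -3.22 from untreated cells.

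The slope of Psmb8 was -0.74 ± 0.09 on the log2 scale per doubling of the hours in butyrate (SE, 5 arrays, limma, adjusted p = 0.00424), and -0.03 ± 0.09 in aspirin (adjusted p = 0.95). The difference of the slopes was -0.71 ± 0.13 (adjusted p = 0.0448), and it was no longer under 0.05 when any 1 of 8 arrays was left out (butyrate at 12, 16 or 24 h, or aspirin at any hour), with adjusted p up to 0.177. The slope in butyrate stayed under 0.05 with each array left out, with adjusted p up to 0.023. Averaged over the 5 hours Psmb8 was lower with butyrate than with aspirin, with a log2 difference of -1.81 ± 0.40 (adjusted p = 0.0254). This call was lost without the butyrate or the aspirin array of 6, 12, 16 or 24 h, with adjusted p up to 0.0992. Against untreated cells the mean difference of -1.55 ± 0.52 did not pass (adjusted p = 0.0694), and it passed when the butyrate array at 2 h was left out (adjusted p = 0.0121).

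Psmb9, whose product replaces Psmb6 in the immunoproteasome and whose gene lies in the same region of chromosome 20 as Psmb8, was higher in butyrate than in untreated cells. Probe set D10757_g_at read 874.9, 1346.0, 1976.5, 1808.7 and 1484.7 at 2, 6, 12, 16 and 24 h of butyrate, 863.8, 999.9, 583.8, 898.0 and 944.6 at the same hours of aspirin, and 423.5 and 830.8 in untreated cells at 2 and 24 h. Probe set D10757_at, from the same record, read 538.0, 827.3, 1059.2, 1013.5 and 1172.5 with butyrate, 549.4, 641.8, 353.7, 550.6 and 686.1 with aspirin, and 202.7 and 500.8 in untreated cells. On both, every butyrate array was above both untreated arrays, whereas aspirin arrays overlapped the untreated ones, and butyrate and aspirin arrays at 2 h were nearly equal.

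The rise of Psmb9 over untreated cells was 1.28 ± 0.35 and 1.48 ± 0.40 on the log2 scale (SE, n = 5 against 2, limma, adjusted p = 0.0327 and 0.0319). Both calls were lost without the untreated array at 2 h, without the butyrate array at 6, 12, 16 or 24 h, or without the aspirin array at 16 h, with adjusted p up to 0.274 and 0.288. Without the untreated array at 2 h the differences were 0.80 and 0.83, and without the untreated array at 24 h they were 1.77 and 2.14. With the hour as a block (a factor shared by treated and untreated arrays) neither passed (adjusted p = 0.105 and 0.0606), nor did they under quantile normalization (adjusted p = 0.052 and 0.0513). At 24 h alone butyrate exceeded untreated by 0.84 and 1.23. Against aspirin the differences of 0.77 ± 0.26 and 0.71 ± 0.25 did not pass (adjusted p = 0.078 and 0.088).

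**Figure D1:**
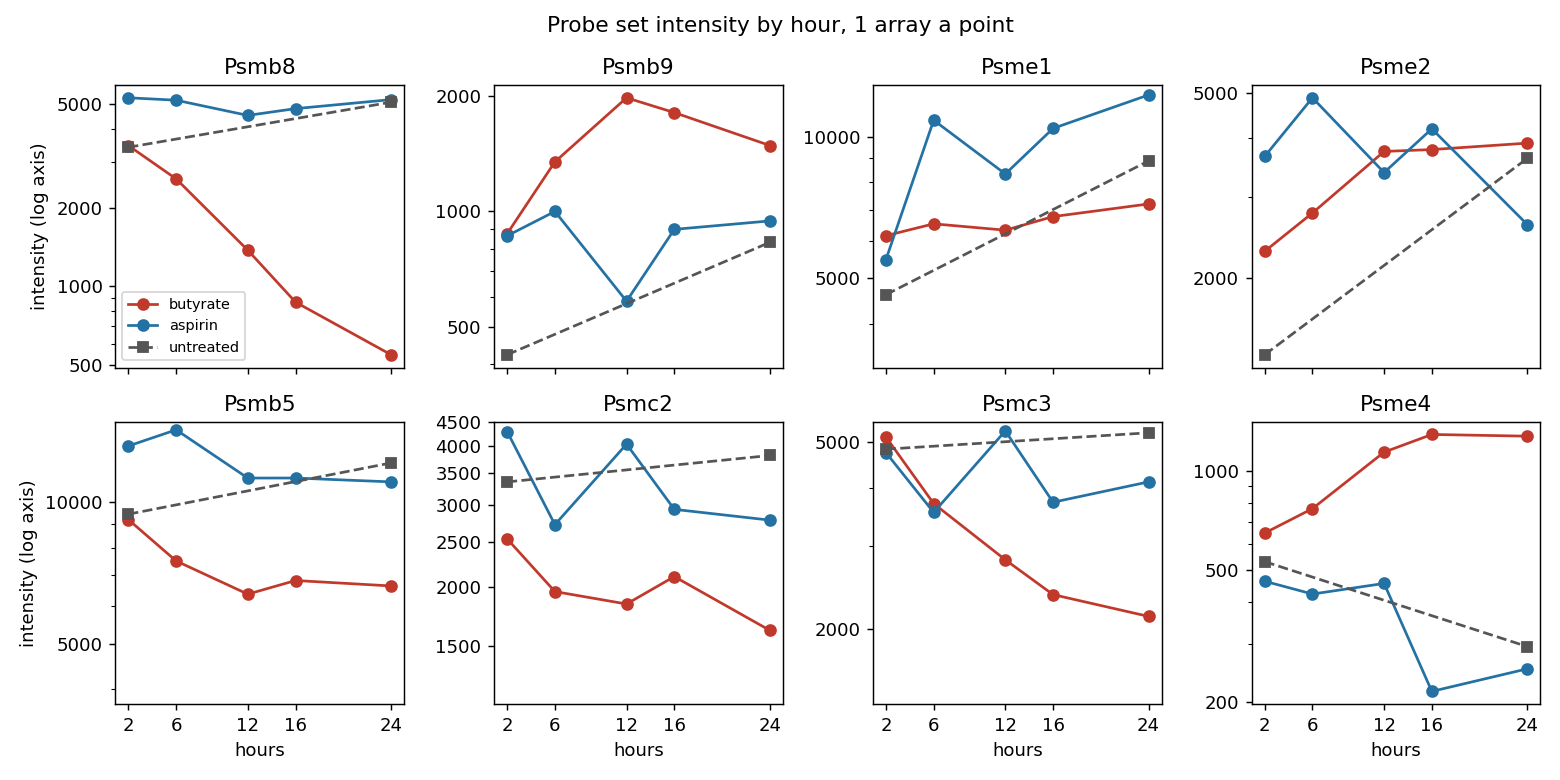
Intensity on a log axis against hours for 1 probe set of each of 8 genes, with 1 array a point: butyrate in red, aspirin in blue and untreated cells as grey squares joined by a dashed line. Psmb8 (D10729_s_at) ends at 545.2 in butyrate against 5190.5 in aspirin and 5073.5 in untreated cells, while Psmb9 (D10757_g_at) peaks at 1976.5 at 12 h of butyrate.

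Psme1 and Psme2, which encode the alpha and beta chains of PA28, did not pass in butyrate against untreated cells. Psme1 (D45249_g_at) read 5009.0, 5525.5, 5309.6, 5043.3 and 5936.6 with butyrate, 4866.7, 6160.5, 7154.5, 8340.0 and 8311.8 with aspirin, and 4361.3 and 6653.6 in untreated cells. The butyrate arrays all lay between the 2 untreated arrays, and the aspirin arrays from 6 h on lay above every butyrate array. The slope of Psme1 in aspirin was 0.23 ± 0.04 per doubling of the hours (adjusted p = 0.0267) on this probe set, and 0.27 ± 0.07 (adjusted p = 0.0764) on D45249_at. Without the butyrate array at 6, 12 or 16 h or the aspirin array at 2, 16 or 24 h the first slope no longer passed, with adjusted p up to 0.136. Untreated Psme1 itself differed by 0.61 and 0.95 between 2 and 24 h on these probe sets.

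Psme2 (D45250_s_at) read 2287.9, 2765.9, 3751.5, 3786.6 and 3909.0 with butyrate, 3660.5, 4893.2, 3379.1, 4196.1 and 2610.8 with aspirin, and 1371.1 and 3626.0 in untreated cells. All treated arrays lay above the untreated array at 2 h and on both sides of the untreated array at 24 h. The mean differences from untreated cells were 0.53 ± 0.34 with butyrate (adjusted p = 0.328) and 0.72 ± 0.34 with aspirin (adjusted p = 0.476).

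The 2 untreated arrays stood apart for the inducible genes, which bears on the size of each mean difference from them. All 4 inducible genes were higher in untreated cells at 24 h than at 2 h, with medians of 0.48 and -0.48 around the untreated mean, while the median over the 3648 genes tested was 0.00 on both arrays. The median difference of the 4 inducible genes from untreated cells was 0.29 with butyrate and 0.51 with aspirin. Without the untreated array at 2 h these medians were -0.30 and 0.02, and without that at 24 h they were 0.88 and 0.99.

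**Figure D2:**
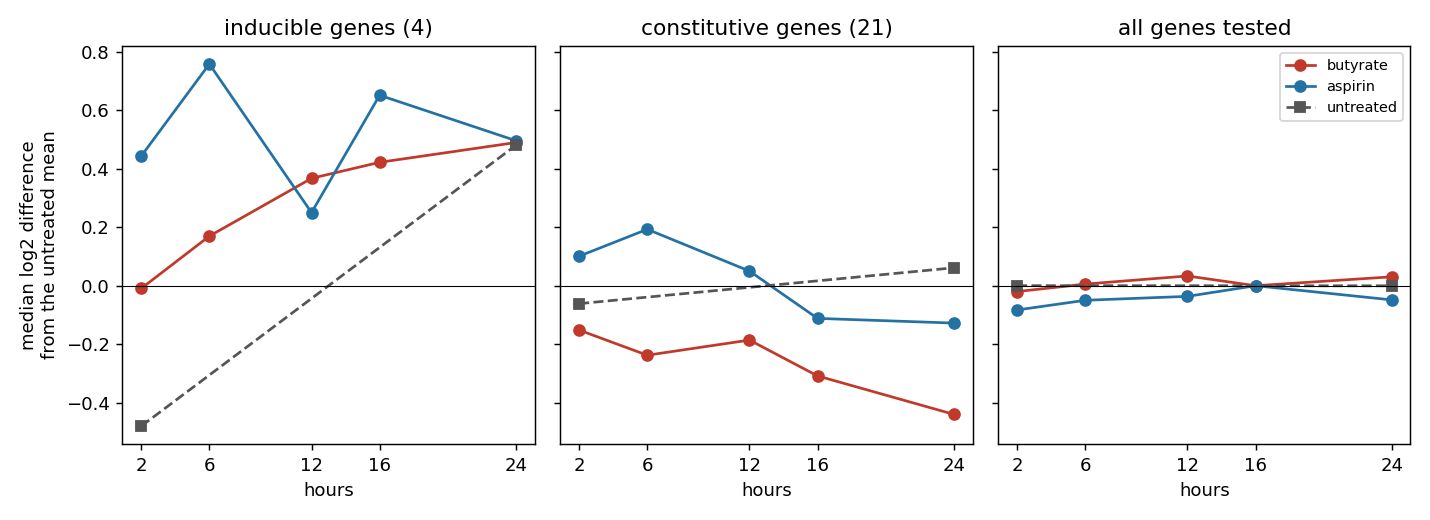
Median log2 difference from the mean of both untreated arrays, by hour, for the 4 inducible genes, the 21 constitutive genes and all 3648 genes tested, each gene by its brightest probe set. The constitutive median is below 0 on all 5 butyrate arrays, reaching -0.44 at 24 h, and the untreated arrays lie at -0.48 and 0.48 for the inducible genes.

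Differences of the constitutive subunits under butyrate were small and mostly negative. Of the 21 constitutive genes 19 had a negative difference from untreated cells, with a median of -0.30 on the log2 scale, where 48.5% of all genes tested were negative and the median was 0.01. In the test across all probe sets 4 of the 47 members passed at an adjusted p under 0.05 (limma), 2 higher and 2 lower, against 11.7% of all 6118 probe sets tested (7.78% higher and 3.92% lower), so the members' share was no larger than that of the array. With the hour as a block 0 of the 47 passed, over all 12 arrays or over those of 2 and 24 h alone. The share of all probe sets called in these blocked fits is not given here, so this count is not set against the array. Of the 4 in the fit without the block, the 2 higher were those of Psmb9, and the 2 lower were 1 each of Psmb5 and Psmc2. At an unadjusted p under 0.05 there were 11 members, against 28.8% of all probe sets. Of the 39 constitutive probe sets 14 lay below both untreated arrays on every butyrate array, against 13.2% of all probe sets, and 0 lay above both, against 14.7%. The 3 members above both untreated arrays on every butyrate array were the 2 of Psmb9 and that of Psme4.

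Psmb5, the constitutive catalytic subunit with chymotrypsin-like activity that Psmb8 replaces, was lower with butyrate on its 3 probe sets. D45247_at read 9186.3, 7500.6, 6373.6, 6814.7 and 6635.2 with butyrate, 13182.4, 14270.0, 11263.8, 11265.4 and 11054.1 with aspirin, and 9434.6 and 12131.1 in untreated cells. Every butyrate array was below every untreated and every aspirin array. The difference from untreated cells was -0.56 ± 0.17 (adjusted p = 0.0458), and it passed with only 2 of the 12 arrays left out in turn (butyrate at 2 h and aspirin at 6 h), with adjusted p up to 0.291. With the hour as a block it did not pass (-0.51, adjusted p = 0.13). The other probe sets of Psmb5 gave -0.38 ± 0.15 (adjusted p = 0.108) and -0.26 ± 0.19 (adjusted p = 0.396).

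Against aspirin, Psmb5 fell on all 3 probe sets. The differences were -0.75 ± 0.08 for D45247_at (SE, 5 arrays each, adjusted p = 0.00561), -0.55 ± 0.08 for D45247_g_at (adjusted p = 0.00877) and -0.46 ± 0.09 for rc_AA891226_s_at (adjusted p = 0.0204). The first passed with each of the 10 arrays left out in turn, with adjusted p up to 0.0419. The second missed without either array of 16 h (adjusted p up to 0.0529), and the third without either array of 6, 12 or 16 h (adjusted p up to 0.0781).

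Among the ATPases, which unfold substrates and open the gate of the core, all 5 measured genes had a negative difference from untreated cells, with a median of -0.45. Psmc2 (U13895_s_at) read 2535.6, 1958.2, 1842.4, 2107.6 and 1618.8 with butyrate, 4292.8, 2719.4, 4035.8, 2930.9 and 2780.1 with aspirin, and 3353.1 and 3817.3 in untreated cells. Every butyrate array was below all others. The difference was -0.85 ± 0.23 from untreated cells (adjusted p = 0.0315) and -0.72 ± 0.13 from aspirin (adjusted p = 0.0144). The call against untreated cells was lost without either untreated array or without the butyrate array of 6, 12, 16 or 24 h (adjusted p up to 0.155), and also with the hour as a block (-0.80, adjusted p = 0.098). The call against aspirin was lost without the butyrate array of 16 or 24 h or the aspirin array of 12, 16 or 24 h (adjusted p up to 0.0532).

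Psmc3 (U77918_at), another ATPase of the ring, fell with the hours of butyrate. It read 5125.1, 3696.8, 2805.9, 2365.4 and 2125.6 with butyrate, 4747.6, 3540.3, 5280.6, 3721.3 and 4112.0 with aspirin, and 4827.6 and 5231.0 in untreated cells. The butyrate arrays started level with the untreated ones and went down at each hour, while the aspirin arrays had no order in time. Its slope in butyrate was -0.36 ± 0.07 (adjusted p = 0.0163), lost without the butyrate array of 2, 16 or 24 h (adjusted p up to 0.208). The difference of its slopes between butyrate and aspirin, -0.33 ± 0.09, did not pass (adjusted p = 0.123). Psmb8 and Psmc3 were the only members of 47 that passed for the slope in butyrate, where 8.99% of all probe sets passed, and Psmb8 the only one for the difference of the slopes, where 1.73% passed.

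The remaining ATPases showed the same order at 24 h without passing against untreated cells. Psmc1 differed by -0.30 ± 0.22 (adjusted p = 0.396), Psmc4 by -0.45 ± 0.23 (adjusted p = 0.217) and Psmc5 by -0.55 ± 0.26 (adjusted p = 0.179). Psmc5 read 2250.3 at 24 h of butyrate, 3035.2 at 24 h of aspirin and 4603.9 in untreated cells at 24 h. In aspirin, too, all 5 ATPase genes had negative slopes, with a median of -0.19 and none passing.

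**Figure D3:**
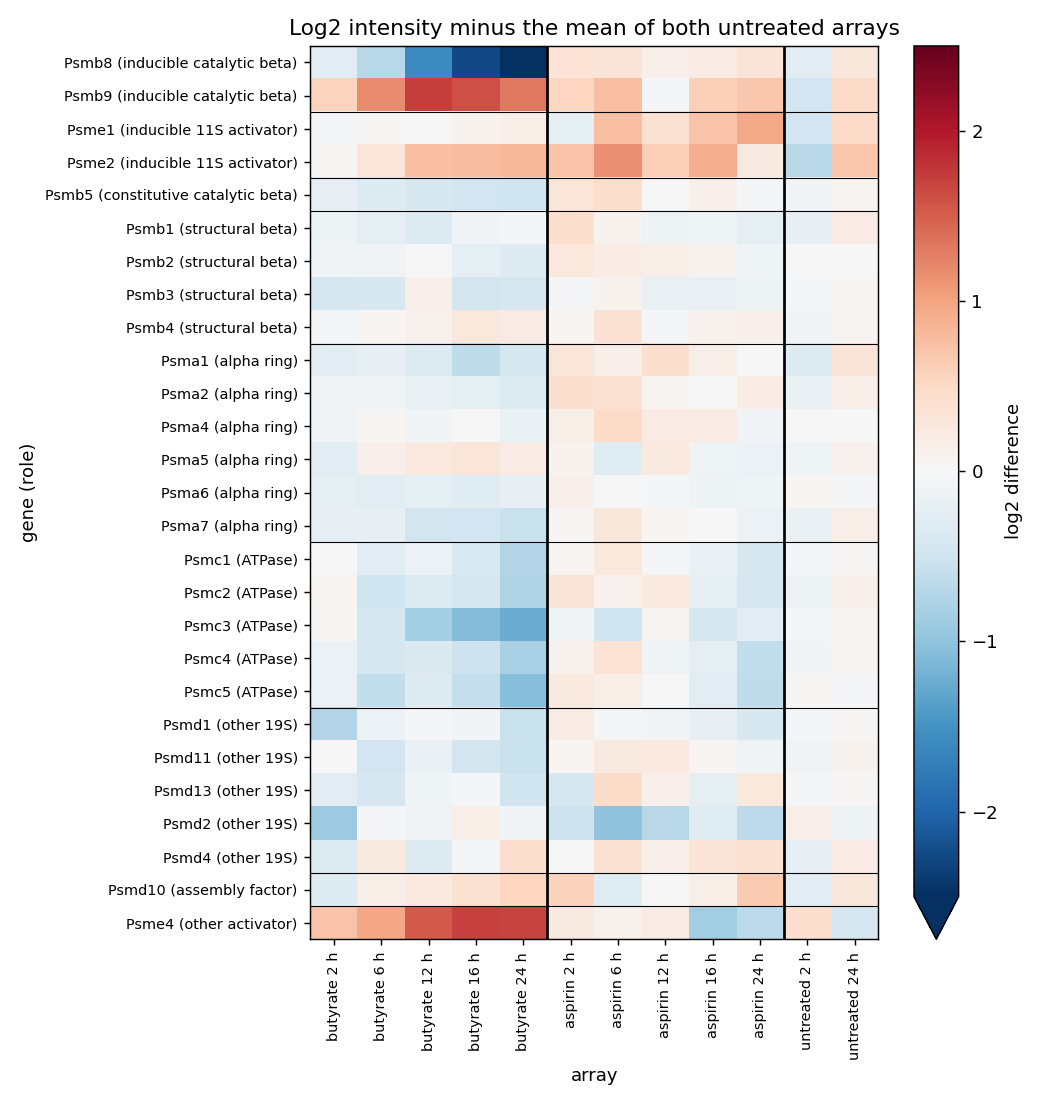
Log2 intensity of each of the 27 genes, by its brightest tested probe set, minus the mean of both untreated arrays, for the 12 arrays in columns (butyrate, aspirin, untreated) and genes in rows by role, with blue lower and red higher. Psmb8 is the darkest blue, reaching -2.93 at 24 h of butyrate (beyond the end of the scale), and Psmb9 and Psme4 are the darkest red rows in butyrate.

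The direct comparison of butyrate with aspirin, hour by hour, gave the most calls. Of the 47 members 17 passed (limma with the hour as a block, adjusted p under 0.05), 16 lower and 1 higher with butyrate, against 25.2% of all probe sets (9.61% lower and 15.6% higher). Of the 39 constitutive probe sets 15 were called lower and 0 higher. The median difference of the constitutive genes was -0.27 and that of all genes tested 0.10, and 19 of 39 constitutive probe sets were lower with butyrate at each of the 5 hours, against 13% of all probe sets. On 9 of these 39 every butyrate array lay below every aspirin array, against 5.3% of all probe sets, and on 0 above, against 10.3%. The count fell with most single arrays left out. It was 5, 3, 1 and 6 without the butyrate array of 6, 12, 16 and 24 h, and 5, 2, 1 and 6 without the aspirin array of these hours. Leaving out an array also removed its partner's hour from the blocked comparison, and the largest count, 19, was without an array of 2 h. The part of the smaller number of hours in the lower counts was not tested. Nor is the share of all probe sets called with an array left out given here, so these counts are not set against the array.

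The scaling of the arrays bears on this comparison. The median difference of all probe sets was 0.10 with the deposited scaling and -0.21 when each array was centred on its median, and 72.8% of all calls were then lower with butyrate, against 38.2% with the deposited scaling. Centring gave 31 called members, 30 of them lower and 1 higher, where it called 34.1% of all probe sets, 24.8% of all lower, and a constitutive median of -0.58. Aspirin arrays had 16.2 to 21.1% of tested values at the floor, against 13.4 to 18.6% on butyrate arrays and 16.9 to 17.7% on untreated arrays, and the part of this in the difference was not tested.

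In the alpha ring, which forms the gate of the core, 4 of 6 genes were called lower with butyrate than with aspirin by their brightest probe set. Psma1 (D90265_s_at) read 5710.1, 5948.1, 5403.9, 4400.0 and 5028.5 with butyrate, 8438.5, 7439.1, 9008.5, 7535.3 and 6752.5 with aspirin, and 5477.2 and 8489.7 in untreated cells. Each butyrate array was below each aspirin array, and the untreated arrays spanned both groups. Its difference from aspirin was -0.56 ± 0.09 (adjusted p = 0.0126).

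Psma7 was lower on both probe sets, with differences from aspirin of -0.43 ± 0.07 (D30804_g_at, adjusted p = 0.0109) and -0.34 ± 0.07 (D30804_at, adjusted p = 0.0204). Psma2 was lower on 2 of 3, with differences of -0.56 ± 0.12 (E03358cds_at, adjusted p = 0.0219) and -0.40 ± 0.08 (E03358cds_g_at, adjusted p = 0.0199). Psma6 (D10755_s_at), among the brightest probe sets with 17816.7 to 19101.3 in butyrate, 20187.9 to 23934.3 in aspirin and 21370.5 to 22770.4 in untreated cells, did not overlap the other groups and differed from aspirin by -0.21 ± 0.06 (adjusted p = 0.0423). That call was lost with any 1 of the 10 arrays left out (adjusted p up to 0.112), and under quantile normalization the difference was 0.0050.

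Psma4 and Psma5 did not pass. Psma4 differed from aspirin by -0.25 ± 0.07 (adjusted p = 0.0501). Psma5 went the other way, with differences of 0.17 to 0.65 on its 3 probe sets, and the dim probe set rc_AA891383_i_at, at 0.65 ± 0.23 (adjusted p = 0.0864), was at the floor on 1 butyrate, 2 aspirin and 1 untreated arrays.

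Of the 4 structural beta genes 2 had a called probe set. Psmb3 (D21800_at) was lower with butyrate than with aspirin, with a difference of -0.36 ± 0.08 (adjusted p = 0.0241), and so was Psmb2 (D21799_g_at), at -0.27 ± 0.06 (adjusted p = 0.0277), each on 1 of 2 probe sets. Psmb1 differed by -0.17 ± 0.12 (adjusted p = 0.329), and the 3 probe sets of Psmb4 lay between -0.24 and -0.01. In the cap 3 further probe sets were lower. The differences were -0.44 ± 0.10 for Psmc5 (adjusted p = 0.0264), -0.40 ± 0.10 for D50694_at of Psmc2 (adjusted p = 0.0323) and, for Psmd11, a scaffold subunit, -0.42 ± 0.11 (adjusted p = 0.0394).

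These calls, too, were lost with single arrays left out, and the part of the hour removed with each was not tested. Without either array of 16 h, the calls of Psma1, Psma2, Psma6, Psma7, Psmb2, Psmb3, Psmc2, Psmc5 and Psmd11 were all lost, with adjusted p up to 0.121 over the arrays left out. All of these changes kept their direction in every setting tried, other than that of Psma6 under quantile normalization.

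The other cap subunits did not follow one direction. Psmd2, a docking subunit for proteins that bring substrates, read 2123.5, 3874.3, 3774.4, 4513.6 and 3799.2 with butyrate, 2797.6, 1995.4, 2480.3, 3228.3 and 2562.4 with aspirin, and 4400.7 and 3651.6 in untreated cells. All aspirin arrays were below both untreated arrays, and from 6 h on all butyrate arrays were above all aspirin arrays. Neither the difference of aspirin from untreated cells, -0.64 ± 0.26 (adjusted p = 0.411), nor that of butyrate from aspirin, 0.44 ± 0.20 (adjusted p = 0.147), passed. Psmd13 differed from aspirin by -0.31 ± 0.20 (adjusted p = 0.294). The probe sets of Psmd4, a ubiquitin receptor, and of Psmd1, a large scaffold subunit, disagreed in sign in this comparison, with ranges of -0.25 to 0.32 over 3 and -0.74 to 0.25 over 4 probe sets, and none passed.

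Psme4 was the only member called higher with butyrate than with aspirin. It read 648.8, 769.4, 1141.2, 1291.1 and 1275.7 with butyrate, 463.6, 423.9, 456.5, 214.9 and 251.6 with aspirin, and 531.5 and 293.8 in untreated cells. Every butyrate array was above every aspirin and every untreated array, and the untreated array at 24 h was below that at 2 h. The difference from aspirin was 1.52 ± 0.36 (adjusted p = 0.0303), lost without the butyrate or the aspirin array of 6, 12, 16 or 24 h (adjusted p up to 0.103). The difference from untreated cells, 1.32 ± 0.41, did not pass (adjusted p = 0.0525). Psmd10 differed from untreated cells by 0.20 ± 0.35 with butyrate and 0.21 ± 0.35 with aspirin, and by -0.01 ± 0.25 between the drugs.

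**Figure D4:**
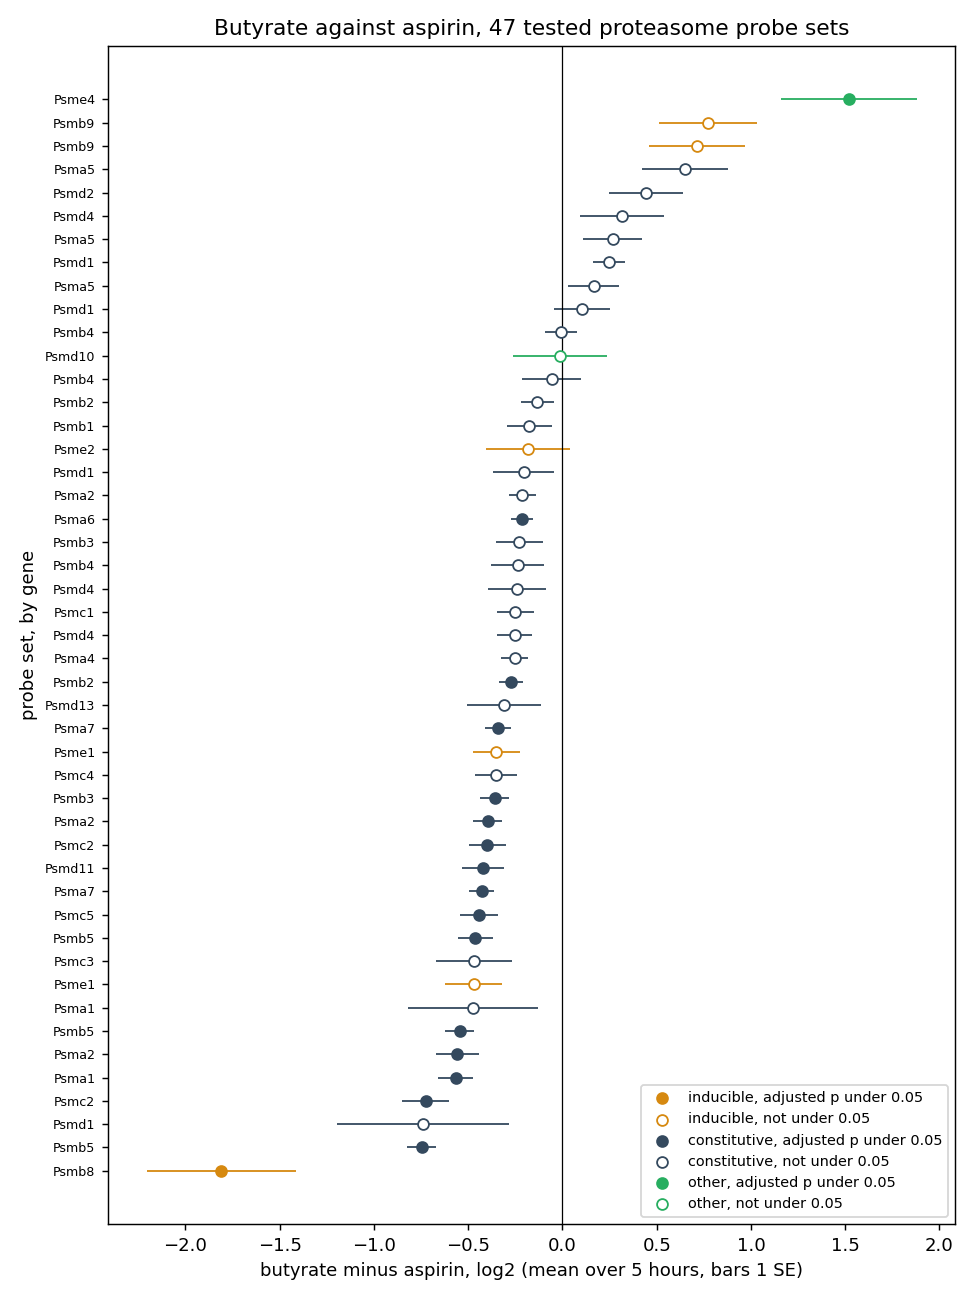
Difference of butyrate from aspirin over the 5 shared hours for the 47 tested proteasome probe sets, on the log2 scale with bars of 1 SE, coloured by class and filled where the adjusted p is under 0.05. Psme4 lies at 1.52 on the right, Psmb8 at -1.81 on the left, and the 15 filled constitutive probe sets lie between -0.75 and -0.21.

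Aspirin against untreated cells gave 0 called members of 47 (limma), 1 at an unadjusted p under 0.05 (Psmd2), against 0.147% of all probe sets called and 10.7% at that unadjusted p. This comparison and that of butyrate share the 2 untreated arrays. The constitutive median was 0.00 and that of all genes -0.04, and 12 of 21 constitutive genes were positive. Only 2 constitutive probe sets, 1 each of Psmd1 and Psmd2, were below both untreated arrays on every aspirin array, against 7.78% of all probe sets. All 6 inducible probe sets were positive, from 0.26 for Psmb8 to 0.77 for Psmb9 (D10757_at). At 24 h, where an untreated array exists, aspirin differed from it by 0.03 for Psmb8, 0.19 and 0.45 for Psmb9, 0.47 and 0.32 for Psme1, and -0.47 for Psme2, so the sign was mixed at that hour.

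Of the 2 drugs' time courses, that of aspirin had 1 called slope among the 47 members, that of Psme1 above, against 1.65% of all probe sets. Of the 21 constitutive genes 18 had a negative slope in aspirin, with a median of -0.06, and 12 of 21 in butyrate, with a median of -0.05. Over all genes tested 42.6% of slopes were negative in aspirin, with a median of 0.02, and 44.2% in butyrate, with a median of 0.03. The constitutive median in aspirin was 0.10 above the untreated mean at 2 h and -0.13 at 24 h. In butyrate it was -0.15 at 2 h and -0.44 at 24 h.

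The wider pathway was covered by lists of genes by function, counted by the brightest probe set of each gene. Over all 3648 genes, 7.70% were called higher and 3.62% lower in butyrate against untreated cells, and 15.7% higher and 8.96% lower in butyrate against aspirin. Of 11 tested genes that control, feed or assist the proteasome, 0 passed in butyrate against untreated cells. Against aspirin Vcp, the segregase that pulls ubiquitylated proteins from complexes, was higher, at 0.50 ± 0.08 (adjusted p = 0.013), and Blmh, a cytosolic peptidase, and Txnl1, a thioredoxin bound to the cap, were lower, at -0.91 ± 0.21 (adjusted p = 0.0297) and -0.42 ± 0.11 (adjusted p = 0.0427). Of 10 tested ubiquitin ligase parts 1 was higher and 1 lower than with aspirin. They were Anapc5, a subunit of the anaphase-promoting complex (0.37 ± 0.08, adjusted p = 0.0264), and Cdc20, an activator of that complex (-1.36 ± 0.33, adjusted p = 0.0317).

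Of 8 tested E2 enzymes, 1 E1 or ubiquitin gene and 1 deubiquitinating enzyme, 0 passed in these comparisons by the brightest probe set. Other probe sets of some genes passed. For the E2 enzyme Ube2b 2 of 3 probe sets were higher in butyrate than in untreated cells (1.57 with adjusted p = 0.0125 and 1.16 with adjusted p = 0.0209), and the brightest was at 0.83 (adjusted p = 0.0765). One of these, rc_AA799612_at, was also higher than with aspirin (1.06, adjusted p = 0.0294), and a probe set of Nedd8, a ubiquitin-like modifier, was lower (-0.64, adjusted p = 0.033). Less bright probe sets also passed against untreated cells for Vhl, the substrate receptor of a ligase (1.72, adjusted p = 0.0406, and 1.60 with adjusted p = 0.0313 against aspirin), and for Tpp2, a peptidase acting after the proteasome (-0.89, adjusted p = 0.0493), and another of Tpp2 was higher than with aspirin (0.99, adjusted p = 0.0396).

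Over the hours of butyrate Blmh, Txnl1, Vcp, Cdc20 and the ligase Nedd4 fell, with slopes of -0.41, -0.25, -0.16, -0.66 and -0.44 (adjusted p up to 0.0474), where 4.33% of all genes were called lower and 5.18% higher. Of these, Nedd4 also passed for the difference of slopes between butyrate and aspirin (-0.61 ± 0.10, adjusted p = 0.032). Fbxo2, a ligase part that binds glycoproteins, rose with both drugs, at 0.24 ± 0.06 in butyrate (adjusted p = 0.0384) and 0.41 ± 0.06 in aspirin (adjusted p = 0.02), and the difference of its slopes was -0.17 ± 0.08 (adjusted p = 0.303).

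Of 23 tested genes of antigen processing and interferon control, among which inducible proteasome genes are usually placed, 3 rose in butyrate against untreated cells and 0 fell. They were Irf1, a transcription factor of the interferon response (1.36 ± 0.29, adjusted p = 0.0102), Stat2, a transducer of interferon signals (1.78 ± 0.42, adjusted p = 0.0179), and B2m, the light chain of MHC class I (0.96 ± 0.28, adjusted p = 0.0424). The list's median was 0.41, against 0.01 for all genes. Against aspirin 6 were higher with butyrate and 1 was lower. The 4 with the lowest adjusted p were Calr, a chaperone of MHC class I assembly (0.92 ± 0.10, adjusted p = 0.00561), Stat2 (1.68 ± 0.32, adjusted p = 0.0179), Irf1 (1.14 ± 0.22, adjusted p = 0.0197) and the interferon-induced Mx2 (1.67 ± 0.34, adjusted p = 0.0208). Calr and Mx2 did not pass in butyrate against untreated cells (0.33, adjusted p = 0.45, and 0.82, adjusted p = 0.309). In aspirin they were below untreated cells without passing (-0.59, adjusted p = 0.443, and -0.85, adjusted p = 0.571). Untreated Mx2 itself read 1037.2 at 2 h and 274.2 at 24 h, and aspirin read 656.2 and 264.8 at these hours. The 1 lower gene was at the floor on 5 butyrate and 2 untreated arrays. Over the hours of butyrate B2m, Mx1 and the interferon receptor chain Ifnar1 rose, with slopes of 0.36, 0.57 and 0.34 (adjusted p up to 0.0269). Mx1 and Ifnar1 were each at the floor on 2 untreated, 5 aspirin and 1 butyrate arrays, and B2m on 0. In aspirin against untreated cells 0 genes of the list passed, where 0.11% of all genes tested were called higher and 0.03% lower.

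Markers of cell types were looked at beside these results. All 5 epithelial marker genes on the array were above the floor on all 12 arrays, with summed intensities of 56429.5 to 66527 in butyrate, 60409.1 to 70561.1 in aspirin and 61224.1 to 72362.7 in untreated cells. Of 10 blood and immune marker genes 1 was above the floor on all arrays and 3 were at it on all, with sums of 758.7 to 1477.6 in butyrate, 775.7 to 1335.2 in aspirin and 903.8 to 1446.2 in untreated cells. Of 6 fibroblast genes 3 were above it on all arrays, with sums of 892.1 to 1443.7 in butyrate, 721.3 to 1192.5 in aspirin and 1122.9 to 1247 in untreated cells. Of 3 endothelial genes 0 were, with sums of 131.2 to 258 in butyrate, 134.7 to 264.9 in aspirin and 251.7 to 360.6 in untreated cells. All of these ranges overlapped between the groups, and their part in the results was not tested. In whole cultures, fewer cells that express a gene and less RNA per cell cannot be told apart.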

How the data were processed

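The deposited table holds 1 intensity per probe set and array on a linear scale, as the deposited values themselves show. What software the authors ran, and how they corrected background and scaled arrays, is not given in the sources here. Of its 8799 probe sets 59 controls were left out. Between 21.6 and 25.6% of values were negative on each array, and array means without the extreme 2% at either end were equal, so the values were taken as scaled. Intensities under 91, the size of the 10th percentile (itself negative), were raised to it (log2 6.51) before log2, and a filter removed probe sets whose mean log2 was below its 30th percentile (6.54). Adjusted p-values are limma's (lmFit and eBayes with a variance trend, Benjamini-Hochberg over all 6118 tested probe sets, threshold 0.05, limma 3.58.1 in R 4.3.3). Drugs were compared with untreated cells over 12 arrays, with hours of a drug as its replicates (9 residual degrees of freedom), with each other with the hour as a block (4), and slopes were fitted on log2 hours over 10 arrays (6). A log2 change is understated where values lie near the floor, and the number of arrays limits the precision. On simulated data 2-fold changes were found in 27.8% of cases and 4-fold changes in 87.5% for butyrate against untreated cells, over 6118 probe sets. Genes were named from the platform annotation, promoters from RefSeq (GRCr8). The members and gene lists were chosen with earlier results of these data known. Genes picked to be named were the inducible ones, their constitutive counterparts and every called probe set. So were those with the 5 highest and 5 lowest changes or 3 steepest slopes. From each pathway list up to 4 called genes per comparison were taken, by adjusted p. Not every value that met this rule is printed above. Probe set rc_AI009111_at of Psma1 had slopes of -0.35 in butyrate and -0.58 in aspirin, neither passing. In butyrate against untreated cells it differed by -0.64, Psmc3 by -0.72 and a probe set of Psmd1 by -0.74, none passing. The less bright probe sets of pathway genes were named after their values were seen. Alternatives changed the floor, the filter, the normalization, the variance trend, the hour term and each array.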

Additional observations from a re-analysis of the deposited data

Results flagged for a closer look

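Of 68 sets of 5 arrays of 1 drug, 3 held an array whose gap to the nearest other array passed Dixon's critical value of 0.71 (share of the range), where chance gives 3.4 (about 1 in 20). Psmb9 (D10757_g_at) read 583.8 at 12 h of aspirin, below the 863.8 to 999.9 of the other aspirin arrays. Psmd1 (rc_AA859869_s_at) read 3249.9 at 24 h of aspirin, below the 4162.2 to 4580.2 of the others. Psmd2 (D37934_g_at) read 2123.5 at 2 h of butyrate, below the 3774.4 to 4513.6 of the others. The slope of Psmb8 over log2 hours differed between butyrate and aspirin by -0.7108 per doubling (limma, adjusted p = 0.0448), with the Psmb8 intensity at 24 h at 545.2 in butyrate and 5190.5 in aspirin.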

How the results depend on the processing

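Across all settings, the values of the named members stayed on the same side of the threshold in 3504 cases. They lost a call in 199 and gained a call in 34. A called value turned once, for Psma6 in butyrate against aspirin under quantile normalization (0.0050, adjusted p = 0.96). These counts leave out the sign of values that were not called, such as Psme1 in butyrate, where the 2 untreated arrays lie on either side. Most values were not called to begin with, as only 4 of 47 members passed in butyrate against untreated cells and 17 against aspirin. The 3504 cases therefore do not show how stable the calls were. In butyrate against untreated cells the 4 called members became 0 with the floor doubled, 0 without the filter, 2 with quantile normalization (0 higher and 2 lower), 2 with median centring (1 higher and 1 lower), 0 with the hour as a factor (replicate block) and 0 on the arrays of 2 and 24 h alone with the hour as a replicate block, and 0 to 7 with 1 array left out (the extremes without, among others, untreated 2 h and without butyrate 2 h). Over all probe sets tested, the share called was 11.7% in the main fit, 3.68% with the floor doubled and 4.06% without the filter. It was 11.6% with quantile normalization and 13.2% with median centring. Shares with the hour as a block or with 1 array left out are not given here. The constitutive median of -0.30 became -0.49 with median centring, and with 1 array left out lay between -0.36 and -0.24. The inducible median of 0.29 then lay between -0.30 and 0.88. In aspirin against untreated cells the count of 0 lay between 0 and 1, the constitutive median between -0.07 and 0.13 and the inducible median between 0.019 and 0.99. In butyrate against aspirin the 17 called members became 11 with the floor doubled and 31 with median centring, and 1 to 19 with 1 array left out. The share of all probe sets called there was 25.2% in the main fit, 7.81% with the floor doubled and 34.1% with median centring. The constitutive median of -0.27 became -0.58 and the inducible median of -0.33 became -0.63 with median centring. With 1 array left out they lay between -0.32 and -0.25 and between -0.39 and -0.21. Median centring moved the median of all probe sets from 0.00 to -0.19 in butyrate against untreated cells and from 0.10 to -0.21 in butyrate against aspirin, and the share of all calls that were lower to 54.2% and 72.8%, against 33.5% and 38.2%. For the slopes in butyrate, the count of 2 lay between 1 and 3 with 1 array left out, the constitutive median between -0.09 and -0.02 and the inducible median between 0.08 and 0.15. For the slopes in aspirin, the count of 1 became 2 with the floor halved, with the filter at the median and with median centring (0 higher and 2 lower, where the 1 was higher), and 0 to 2 with 1 array left out. Of all probe sets 1.65% were called for this slope in the main fit, and 3.96%, 5.63% and 4.22% in these settings, in that order. The constitutive slope median of -0.06 became -0.13 with median centring and lay between -0.16 and -0.048, and the inducible one between -0.03 and 0.00. For the difference of the slopes, the count of 1 became 0 with the floor doubled, without the filter and without the variance trend, and 0 to 1 with 1 array left out, with medians between -0.022 and 0.13 (constitutive) and between -0.05 and 0.13 (inducible). For this difference 1.73% of all probe sets were called in the main fit, 0.561% with the floor doubled and 0.423% without the filter. With the floor doubled or no filter 8740 probe sets were tested, and the cause of the other shifts was not tested. Aspirin and untreated arrays share hours with butyrate arrays but the labels number no replicates, and 7 of 564 tested member values were at the floor. A lone untreated array, where the other is left out, was taken to vary like the other groups.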
